A study of Mus musculus with 2 samples.

Results

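Mbp, Cnp and Pmp22, which Schwann cells use to build peripheral myelin, were described here across all cells of the normal mouse aorta. They are 3 of the 16971 genes in the count table, taken by their symbols. Whole aortas of C57/BL6 mice (wild type, female, 12 weeks old, on a chow diet) were dissociated, and the RNA of single cells was sequenced in droplets (10x Genomics v2). The aortas ran from the root to the femoral bifurcation, perivascular fat had been dissected away, and red cells had been lysed after enzymatic digestion. All cells belong to 1 group of 2 libraries, told apart by the number at the end of each cell barcode, and which of these numbers is the mouse labelled WT1 and which WT3 is not stated. The authors gave every cell the name of a population, of which there are 10. These are Neuron, VSMC (vascular smooth muscle), Fibro 1 and Fibro 2 (fibroblasts), EC 1, EC 2 and EC 3 (endothelium), Mono 1, Mono 2 and Macro.

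Schwann cells are the glia of peripheral nerves, and such nerves reach the outer wall of large arteries. Myelinating Schwann cells wrap a single axon in many membrane layers, whereas non-myelinating (Remak) Schwann cells hold several thin axons without myelin. Mbp encodes myelin basic protein, which holds the inner faces of the compact myelin membrane together. Pmp22 encodes a tetraspan protein of compact peripheral myelin, and changes in its gene dose are known to cause inherited neuropathies in people. It is also known in fibroblasts and other cells without myelin. Cnp encodes a cyclic nucleotide phosphodiesterase of the uncompacted parts of the myelin sheath.

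Library 1 held 2260 cells and 11104066 UMIs (unique molecular identifiers, which count captured transcripts once), and library 2 held 3191 cells and 19484171 UMIs. The medians were 4160.5 and 5636 UMIs per cell. The libraries shared 12 cell barcodes. The population named Neuron held 12 cells of library 1 and 32 of library 2, with 2468 UMIs per cell at the median. In the deposited cell annotation these 44 cells bear an earlier name, "mbp positive cells", so Mbp itself served to name them. All populations had been defined by clustering these same counts. Levels and calls of any gene in the population named Neuron are therefore a description, and no adjusted p is printed for them. Levels are CPM, UMIs of the gene scaled to 1000000 UMIs of a population in a library. Intervals and upper limits of shares of cells cover counting error only.

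The promoter windows of Cnp and Pmp22 are shown because the levels of these genes took different courses across the populations. Each runs from 250 bases before to 50 after a transcription start in RefSeq (GRCm38.p6), on the plus strand. In mouse, Pmp22 is known to have alternative promoters, of which one serves mainly myelinating Schwann cells and another serves many tissues. RefSeq lists 4 start windows for Pmp22 and 1 for Cnp. The window of Cnp lies at chr11:100574689-100574988, and the first 2 of Pmp22 lie at chr11:63128732-63129031 and chr11:63131207-63131506. Capitals mark the motif ACAAAG, which Sox factors are known to bind, and the GC box GGGCGG, on either strand.
Cnp: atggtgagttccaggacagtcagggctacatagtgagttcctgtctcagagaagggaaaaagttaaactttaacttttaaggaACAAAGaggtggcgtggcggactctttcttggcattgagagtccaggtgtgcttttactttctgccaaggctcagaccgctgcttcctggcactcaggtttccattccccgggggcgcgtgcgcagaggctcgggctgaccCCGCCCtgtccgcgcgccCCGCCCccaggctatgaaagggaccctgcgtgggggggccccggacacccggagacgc
Pmp22 first start: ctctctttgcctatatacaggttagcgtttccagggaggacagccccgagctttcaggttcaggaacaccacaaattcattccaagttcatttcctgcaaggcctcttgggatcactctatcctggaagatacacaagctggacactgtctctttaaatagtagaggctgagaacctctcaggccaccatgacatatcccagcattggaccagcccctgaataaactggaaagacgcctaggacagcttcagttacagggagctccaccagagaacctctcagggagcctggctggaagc
Pmp22 second start: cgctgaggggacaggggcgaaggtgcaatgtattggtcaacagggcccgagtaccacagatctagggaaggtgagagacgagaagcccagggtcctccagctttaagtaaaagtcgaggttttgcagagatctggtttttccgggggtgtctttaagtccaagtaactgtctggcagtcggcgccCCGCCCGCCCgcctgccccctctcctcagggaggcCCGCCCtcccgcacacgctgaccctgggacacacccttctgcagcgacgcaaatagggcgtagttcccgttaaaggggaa
The Cnp window held 1 ACAAAG and 2 GC boxes, with 59.7% G and C. The first Pmp22 window held neither motif and 3 CpG dinucleotides, with 50.7% G and C. The second held 18 CpG dinucleotides and 3 GC boxes, of which a pair overlap, with 60.0% G and C. ACAAAG is found in 18.7% and GGGCGG in 35.7% of 32851 windows of this length, counting both strands. Matches to TATAAA (13.6% of windows) and to the Egr motif GCGTGGGCG (0.612%) were searched too, and neither letter run is in these 3 windows. The table has 1 count per gene, so transcripts from the different starts of Pmp22 cannot be told apart here.

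Mbp stood at 1685 CPM in library 1 and 2948 CPM in library 2 in the population named Neuron, a mean of 2317 ± 893 (SD, n = 2 libraries). The next level was that of Mono 2, at 37.4 and 28.2 CPM. Both Neuron values lay above every other population, 45.1-fold above Mono 2 in library 1 and 104-fold in library 2. Macro had 4.18 and 53.1 CPM, so its libraries lay on both sides of Mono 2 and Mono 1 (14.3 and 15.2 CPM). EC 2, EC 3 and Fibro 2 followed, with means of 10.1, 6.96 and 5.84 CPM. VSMC had 0.336 and 7.90 CPM and Fibro 1 had 2.08 and 5.38 CPM. EC 1 was lowest, with 0 of 148 cells in library 1, which allows a share of up to 2.03%, and 2.01 CPM in library 2. Of the 9 pairs of neighbours in this order, 4 overlapped between libraries, and outside the population named Neuron the counts behind the levels were small, from 3 UMIs in EC 1 and EC 3 to 62 in VSMC.

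Cnp stood at 1362 and 1335 CPM in the population named Neuron (mean 1349 ± 19.0, SD, n = 2 libraries). Macro came next with 146 and 127 CPM, so the Neuron level was 9.30-fold and 10.5-fold above it in libraries 1 and 2. The Macro values did not overlap those of Mono 2 (71.3 and 36.3 CPM), and those of Mono 2 enclosed both values of Mono 1 (51.5 and 41.6 CPM). Fibro 2, EC 3, Fibro 1 and EC 2 had means between 17.7 and 24.5 CPM. VSMC averaged 11.0 ± 2.29 CPM and EC 1 10.6 ± 1.04 CPM, the lowest levels, and their libraries overlapped. Of the 9 neighbouring pairs 5 overlapped.

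Pmp22 had 1616 and 3194 CPM in the population named Neuron (mean 2405 ± 1116, SD, n = 2 libraries). Unlike Mbp and Cnp, its next level was that of fibroblasts. Fibro 2 had 627 and 634 CPM and Fibro 1 had 545 and 647 CPM, and their values overlapped. The Neuron level lay 2.58-fold above Fibro 2 in library 1 and 5.04-fold in library 2. Mono 1 followed with 435 and 362 CPM. EC 3 (116 and 244 CPM), VSMC (141 and 109 CPM), EC 1 and EC 2 (means of 112 and 102 CPM) came after it, each overlapping its neighbour. Mono 2 (40.8 and 24.2 CPM) and Macro (20.9 and 14.2 CPM) had the lowest levels, and neither overlapped the other or EC 2. In all, 4 of the 9 neighbouring pairs overlapped.

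**Figure D1:**
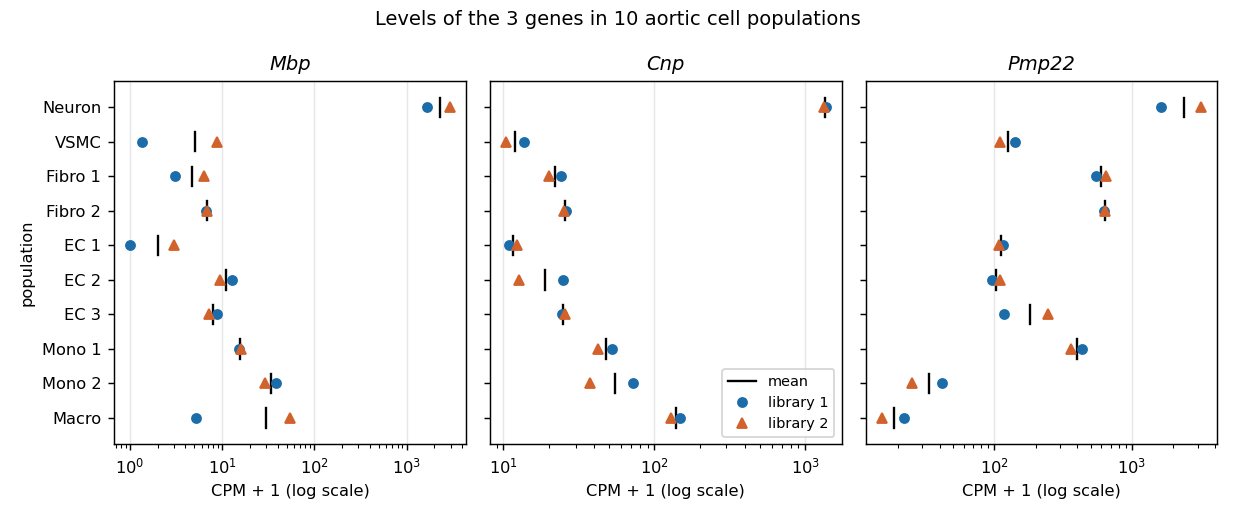
Level of each gene (CPM + 1, log scale) in each of the 10 populations, with a symbol for each library and a bar for their mean. The population named Neuron had the highest level of all 3 genes in each library, and the next level was Mono 2 for Mbp (mean 32.8 CPM), Macro for Cnp (137 CPM) and Fibro 2 for Pmp22 (631 CPM).

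In the fit over 20 sums of library and population, Mbp in Neuron lay 7.82 ± 0.25 on the log2 scale (SE) above the mean of the other 9 populations. Cnp lay 5.20 ± 0.18 and Pmp22 3.67 ± 0.18 above it. Within library 1 the differences were 7.54, 4.97 and 3.05 for Mbp, Cnp and Pmp22, and within library 2 they were 7.50, 5.17 and 4.00. All 3 genes passed the threshold of 0.05 on the adjusted p, as did 9.11% of the 10488 genes tested (5.43% higher, 3.68% lower). The genes were chosen with this contrast known, so no p is given for them. The median over all genes tested was -0.24 on the log2 scale, -0.07 with RLE size factors and 0.05 with DESeq2.

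The 44 cells named Neuron were not alike. They were divided into 3 ranges by their own UMIs of Mbp and Cnp after the values were seen, so what the ranges hold of these genes is a description with no test. In all, 6 cells (1 of library 1 and 5 of library 2) had 10 or more UMIs of Mbp and are called Mbp-rich. A further 27 cells (10 and 17) had at least 1 UMI of Mbp or Cnp. The other 11 cells (1 and 10) had neither. Median UMIs per cell were 2322 in the Mbp-rich cells, 2030 in the other cells with Mbp or Cnp and 3298 in the cells with neither. With 1 Mbp-rich cell in library 1 the ranges have no replicate check.

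Mbp had 13 to 73 UMIs in each Mbp-rich cell (median 41.5), against 9 at most in every other cell. The Mbp-rich cells held 267 of the 349 Mbp UMIs of the population, 57.5% in library 1 and 81.5% in library 2. Pmp22, which did not set the ranges, had 20 to 64 UMIs in each Mbp-rich cell (median 53.5) and 0 to 7 in the other cells with Mbp or Cnp (median 3). The 6 cells with most Pmp22 were thus the 6 with most Mbp. They held 288 of 369 Pmp22 UMIs, 51.4% in library 1 and 84.3% in library 2. Cnp was spread more evenly. It had 7 to 21 UMIs in the Mbp-rich cells (median 10.5) and 0 to 11 in the other cells with Mbp or Cnp (median 5), so these overlapped, and the Mbp-rich cells held 35.6% of its UMIs in library 1 and 37.6% in library 2.

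Cells with less Mbp also carried the trio. Of the 27 other cells with Mbp or Cnp, 23 had Mbp, 26 had Cnp and 23 had Pmp22. As levels these cells had 1137 and 1236 CPM of Mbp in libraries 1 and 2, 1394 and 1890 CPM of Cnp, and 1247 and 994 CPM of Pmp22. With the Mbp-rich cells left out, the population named Neuron still lay above the mean of the other 9, by 6.03 for Mbp, 4.74 for Cnp and 1.84 for Pmp22 on the log2 scale. Leaving out cells by their Mbp lowers the value for Mbp by construction. In the 11 cells with neither Mbp nor Cnp, Pmp22 was found in 4 with at most 2 UMIs. Those of library 2 had 179 CPM of Pmp22, against 647 CPM in Fibro 1 and 634 CPM in Fibro 2 of that library. The difference of 1.84 is from a mean of 9 populations. It does not show that Pmp22 in Neuron stayed above the fibroblasts once the Mbp-rich cells were left out.

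**Figure D2:**
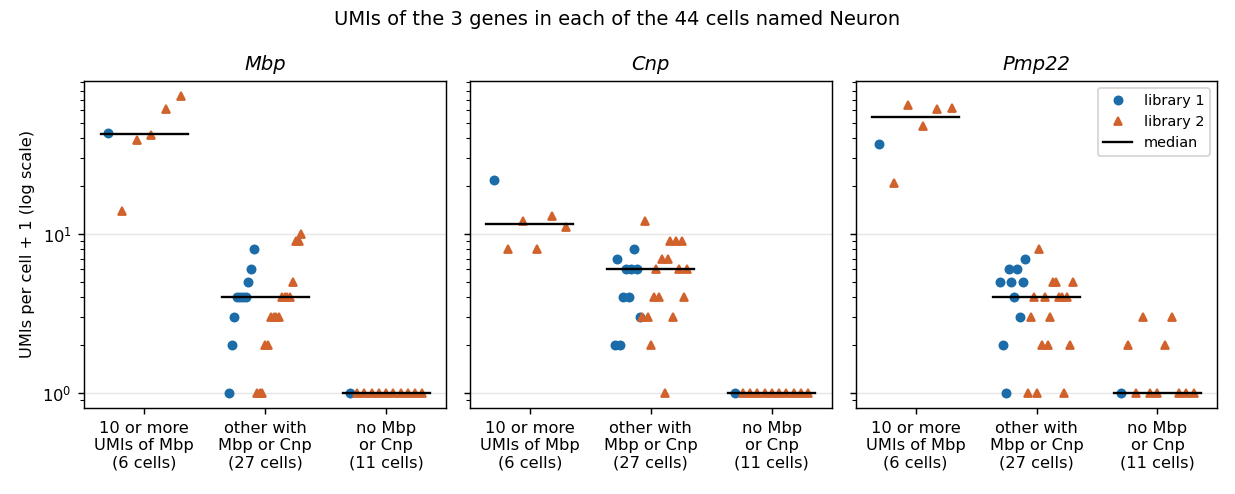
UMIs per cell + 1 (log scale) of each gene in each of the 44 cells named Neuron, by the 3 ranges set with Mbp and Cnp, with symbols for the libraries and a bar for the median. Pmp22 does not overlap between the Mbp-rich cells (20 UMIs at least) and the other cells (7 at most), whereas Cnp does (7 at least and 11 at most).

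Over 16 other genes of myelin and myelinating Schwann cells, the Mbp-rich cells held 198 of the 288 UMIs of the population named Neuron, 47.6% in library 1 and 74.7% in library 2. Of the 27 other cells with Mbp or Cnp, 25 had UMIs of this list, 85 in all, so the list as a whole was in both ranges. Single genes of it lay mostly in the Mbp-rich cells and were picked for that after their values were seen. Within the population named Neuron, all UMIs of Ncmap (42), Pllp (34) and Cldn19 (15), which encode membrane proteins of the sheath, came from these 6 cells, and 0 of the 27 other cells with Mbp or Cnp had a UMI of any of them, which allows a share of up to 11.1%. Prx, the scaffold protein periaxin, had 18 of the 19 UMIs it had in this population there. Mag, the myelin-associated glycoprotein, was found in 6 of 6 Mbp-rich cells and in 4 of 27 other cells with Mbp or Cnp. Other genes, also picked after their values were seen, lay mostly in the other range. The sodium channel gene Scn7a was found in 1 of the 6 Mbp-rich cells and in 25 of the 27, and Gfra3, a coreceptor for artemin, in 1 of 6 and in 18 of 27. Cdh19, a cadherin of the Schwann cell lineage, was found in 2 of 6 and in 26 of 27, whereas the potassium channel gene Kcna1 was found in 6 of 6 and in 26 of 27. A single Mbp-rich cell with 8466 UMIs held all 10 Scn7a UMIs and 16 of the 17 Cdh19 UMIs of the Mbp-rich cells.

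**Figure D3:**
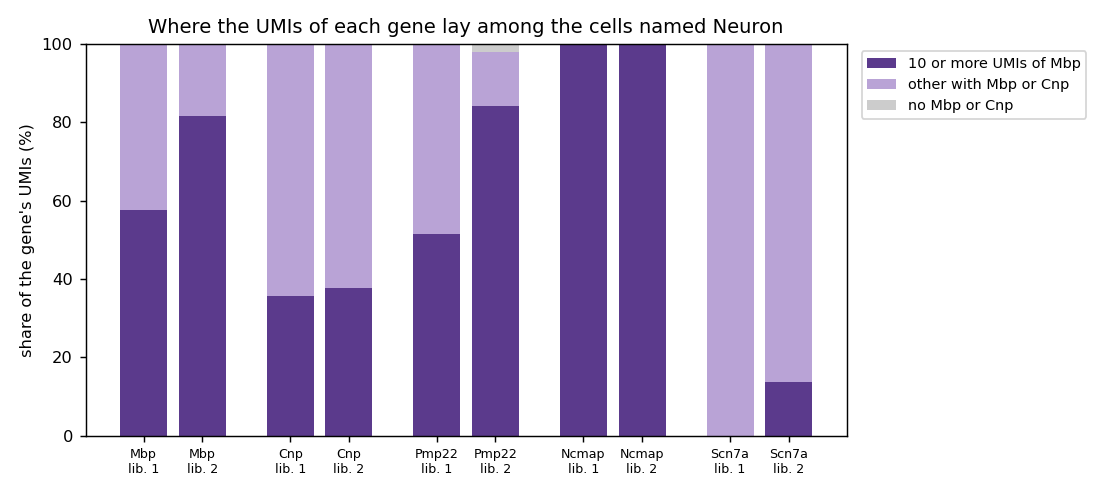
Share of each gene's UMIs in the population named Neuron (percent) that lay in the Mbp-rich cells, the other cells with Mbp or Cnp and the cells with neither, for each library. Pmp22 and Ncmap UMIs lay mostly in the Mbp-rich cells, those of Cnp and Scn7a mostly in the other cells with Mbp or Cnp. Mbp and Cnp set the ranges.

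The 11 cells with neither Mbp nor Cnp had no UMI of Scn7a, Cdh19, Gfra3 or Kcna1 (0 of 11 cells, which allows a share of up to 27.3%). Over all 12 genes of the Schwann cell lineage list they had 56 UMIs in 9 cells, of which 45 UMIs in 7 cells were of Art3, against 657 UMIs of the list in the 27 other cells with Mbp or Cnp. The only cell of library 1 with neither Mbp nor Cnp had 3222 UMIs of Scgb1a1 and 1232 of Bpifa1, secretory genes known from the airway lining, among 13899 UMIs. Among the 10 others, all of library 2, the pericyte genes Pdgfrb, Notch3 and Rgs5 were found in 7, 6 and 6 cells. Pdgfrb and Notch3 were found in 0 of the 33 cells with Mbp or Cnp, which allows a share of up to 9.09%, and Rgs5 in 3. These genes were chosen after their values were seen. All UMIs of the 11 cells count in the depth to which levels of the population named Neuron are scaled. They therefore lower the CPM of Mbp and Cnp given above for it.

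Mbp and Cnp were detected in a larger share of cells in the population named Neuron than in any other, and Pmp22 was not. At least 1 UMI of Mbp was found in 10 of 12 Neuron cells of library 1 (83.3%, with 51.6 to 97.9 as the exact 95% interval by Clopper and Pearson) and in 19 of 32 of library 2 (59.4%, 40.6 to 76.3). Cells named Neuron had 2468 UMIs at the median, against 6950 in Mono 2, which came next with Mbp in 20.2% of cells over both libraries. In VSMC 0.973% of cells had a UMI of Mbp (median 6025 UMIs per cell), and in EC 1 0.706% did (4010 UMIs), though the VSMC share counts a cell with 39 UMIs of Mbp. The part of free RNA in these low shares was not tested. Cnp was found in 11 of 12 and 21 of 32 Neuron cells (91.7% and 65.6%), against 32.9% of Macro cells. VSMC (6.35%), EC 1 (5.18%) and EC 2 (4.80%) had the lowest shares, and the order of shares was not that of the levels, since EC 2 had more CPM of Cnp than VSMC and EC 1.

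Pmp22 was found in 10 of 12 and 23 of 32 Neuron cells (83.3% and 71.9%). Over both libraries the share in Neuron was 75.0%, against 88.7% in Fibro 1, 84.5% in Fibro 2 and 71.1% in Mono 1. The median depth was 2468 UMIs in Neuron, against 5513 and 5402.5 UMIs in Fibro 1 and Fibro 2. With every cell thinned to 1300 UMIs, which left out no cell, the shares were 56.8% in Neuron, 52.5% in Fibro 1 and 49.5% in Fibro 2. The intervals of these shares overlap. Macro had the lowest share of cells with Pmp22, 5.39%.

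**Figure D4:**
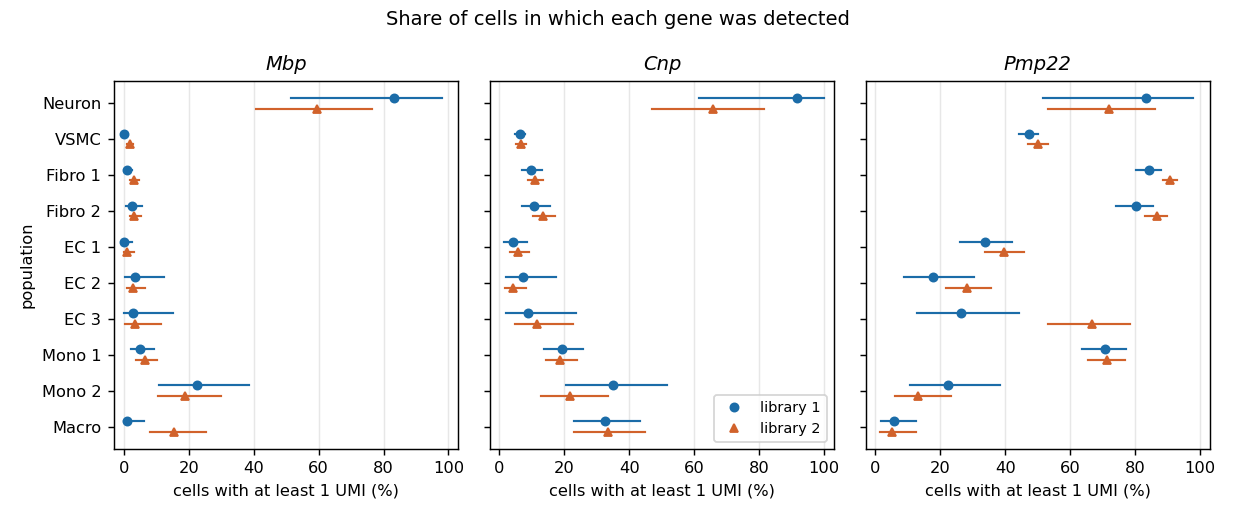
Percent of cells with at least 1 UMI of each gene in each population and library, with exact 95% intervals for counting error. Mbp and Cnp were found in most cells named Neuron and in at most 35% of any other population of a library, while Pmp22 was found in 80.2% to 90.9% of fibroblasts.

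The 3 genes were found together in 9 of 12 Neuron cells of library 1 (75.0%) and in 16 of 32 of library 2 (50%), 25 of 44 in all (56.8%, exact 95% interval 41.0 to 71.7). No cell had Mbp without another of the trio. Pmp22 alone was found in 4 cells and Cnp alone in 1, and 7 cells had none. The remaining 7 had a pair: Mbp with Cnp in 3 cells, Cnp with Pmp22 in 3 and Mbp with Pmp22 in 1. After thinning to 1300 UMIs, all 3 were found in 18 of 44 cells (40.9%), and with at least 2 UMIs of each in 20 (45.5%).

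Across the 44 cells Mbp and Cnp, as shares of a cell's UMIs, had a Spearman rho of 0.74, those of Mbp and Pmp22 0.75, and those of Cnp and Pmp22 0.69. In library 1 these were 0.71, 0.74 and 0.60 (12 cells), and in library 2 they were 0.73, 0.73 and 0.70 (32 cells). The cells share libraries and differ in depth, so these values describe the cells and no test was made. They include the 11 cells with neither Mbp nor Cnp, which tie at 0 for both genes. How far the genes ran together among the other cells was not measured.

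Outside the population named Neuron, 17 of 5407 cells had all 3 genes, 13 of them fibroblasts, where Pmp22 is found in most cells. None was found among 425 EC 1 cells, 229 EC 2 cells and 167 Macro cells, which allows shares of up to 0.706%, 1.31% and 1.80%. A single cell outside Neuron had 5 or more UMIs of Mbp. It is named VSMC in library 2, and it had 39 UMIs of Mbp among 3822, with 0 of Cnp and Pmp22. It also had 5 UMIs of S100b and 4 of Drp2, genes of Schwann cells, and 8 of Acta2 (smooth muscle actin), whose median in VSMC cells of that library was 107. This cell held 39 of the 60 Mbp UMIs of VSMC in library 2, and without it the level there was 2.77 CPM.

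The other genes of the pathway were taken from lists. Of 16 genes of myelin and myelinating Schwann cells, 12 were tested and 11 were higher in the population named Neuron than in the mean of the other 9, against 5.43% of all genes. Their median was 7.81 on the log2 scale, against -0.24 for all genes. The adhesion gene Cadm4 had 369 and 256 CPM in Neuron, against a mean of 4.62 CPM in EC 3, the next population (log2 difference 9.76 ± 0.71 SE). Ncmap had 115 and 395 CPM there, against a mean of 1.12 CPM in Fibro 1 (9.40 ± 0.62). Pllp had 92.3 and 320 CPM and Mal, a proteolipid of myelin and of some epithelia, 323 and 523 CPM. Gldn missed the threshold, and Gjb1, Fa2h, Dusp15 and Nfasc had too few UMIs to be tested. The clusters were made on these counts, so the calls in these lists describe the population and do not support its name.

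Genes of the Schwann cell lineage were higher in 10 of 10 tested, against 5.43% of all genes. Their median was 9.46 on the log2 scale, against -0.24 for all genes. Foxd3 and Sox2 had too few UMIs to be tested. Kcna1 had 1293 and 1965 CPM in the population named Neuron, against 0.234 CPM in VSMC, the next population. Gfra3 (970 and 449 CPM), Sostdc1 (300 and 502 CPM, a secreted antagonist of BMP and Wnt signals) and Fabp7 (208 and 128 CPM, a fatty acid binding protein) were the others with the largest differences. Genes of non-myelinating Schwann cells were higher in 6 of 6 tested, with a median of 6.18, and Gfap had too few UMIs to be tested. Scn7a had 1200 and 780 CPM and the adhesion gene Chl1 416 and 171 CPM. L1cam had 300 and 160 CPM. Ncam1 was called higher against the mean of the others (2.87 ± 0.31), yet its 439 and 374 CPM in Neuron lay below the mean of 559 CPM in VSMC.

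Genes of nerve cells went against the population's name. Of 11 such genes in the table, 8 had 0 UMIs in the 44 cells, among them Stmn2, and 10 UMIs were found for all 11. Their summed level was 69.3 and 74.8 CPM in the population named Neuron, against 83.6 and 98.5 CPM in the other cells of the libraries. Neither edgeR nor DESeq2 called either of the 2 tested (Stmn2 and Uchl1), and edgeR gave 0 of them an unadjusted p under 0.05. Of 6 oligodendrocyte genes, 2 are in the count table used here. Mog was at 0 UMIs. Cldn11, a claudin that is also expressed elsewhere, was the only one tested and was called higher against the mean of the others (6.27 ± 1.27), with 7 UMIs, all in library 2 and 5 of them in 1 cell, at a mean of 37.4 CPM against 112 CPM in EC 3. Smooth muscle markers were present. They summed to 3994 and 2692 CPM in Neuron, against 22147 and 14999 CPM in the other cells, VSMC among them. Single cells held 119 of the 173 UMIs of these markers in library 1 and 120 of 252 in library 2, and without these cells the sums were 1472 and 1470 CPM. Acta2 and Myl9, with means of 1462 and 912 CPM in Neuron, were higher there than in any population but VSMC. These means include the cells with 119 and 120 marker UMIs, which held 59 and 58 of the 182 Acta2 UMIs in Neuron. The ranking was not made without them. Against the mean of the other 9 populations the median of the 5 markers was 0.19 on the log2 scale, against -0.24 for all genes, with 0 of 5 called by edgeR and 1 with an unadjusted p under 0.05. That gene, Myl9, was called higher by DESeq2 (log2 difference 0.73). Endothelial markers summed to 46.2 and 42.7 CPM against 502 and 776 CPM, with Cdh5, Cldn5 and Emcn at 0 UMIs, and 2 of 5 (Pecam1 and Cldn5) were called lower. Fibroblast markers summed to 416 and 1292 CPM against 6832 and 10629 CPM, with 2 of 5 (Lum and Clec3b) called lower. A single cell held 55 of their 121 UMIs in library 2, and without it the sum there was 733 CPM. Leukocyte markers summed to 2309 and 256 CPM against 4093 and 3377 CPM, with 1 of 5 (Cd74) called lower. The cell with Scgb1a1 held 93 of their 100 UMIs in library 1, without which the sum was 238 CPM. In library 2 a single cell held 15 of 24, and the sum without it was 100.1 CPM. Of all genes tested, 3.68% were lower. Red cell genes summed to 3601 and 1933 CPM against 8513 and 5513 CPM, and 3 of 4 (Hba-a1, Hba-a2 and Hbb-bs) were called lower. The part of these RNAs in the levels of the trio was not tested.

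Among the relatives of Pmp22 the pattern was not shared. Emp2 was higher in the population named Neuron than in the mean of the others (185 and 150 CPM, log2 difference 1.60 ± 0.38), although EC 1 had more, with a mean of 288 CPM. Emp3 was lower (277 and 214 CPM, -1.16 ± 0.26), and Emp1 did not pass (0.18 ± 0.44). Of 10 genes of lipid synthesis, 3 were higher, against 5.43% of all genes tested. They were Scd2, a stearoyl-CoA desaturase (277 and 342 CPM, 2.99 ± 0.35), Hmgcs1, an enzyme early in cholesterol synthesis (162 and 160 CPM, 2.54 ± 0.45), and Gal3st1, the sulfatide synthesis enzyme (6 UMIs).

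The 4 major classes were compared next, each as the mean of its populations against the mean of the other 3, without the population named Neuron. They rest on clusters of the same counts, which can make these p-values too small. Pmp22 in the fibroblast class lay 2.62 ± 0.13 above the other classes on the log2 scale (adjusted p = 3.65e-17, 2.47 and 2.80 within libraries 1 and 2), a class in which 27.6% of genes were higher. Mbp (-0.68 ± 0.41, adjusted p = 0.181) and Cnp (-0.00, adjusted p = 1) did not pass there. Between Fibro 1 and Fibro 2, where 15.5% of genes were called, none of the trio passed in edgeR (0 at an unadjusted p under 0.05) or DESeq2. The approximate 95% interval of the Pmp22 difference, 2 SE on either side in the fit, ran from -0.48 to 0.35.

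In the immune class Cnp and Mbp were higher and Pmp22 was lower. Cnp lay 2.29 ± 0.16 above the other classes (adjusted p = 2.09e-13) and Mbp 2.61 ± 0.40 above them (adjusted p = 2.06e-06), where 22.5% of genes were higher. Pmp22 was lower in the immune class (log2 difference -1.66 ± 0.21, adjusted p = 6.49e-08), where 27.7% were lower. That class value is a mean of its populations with equal weight, and Mono 1 went against it. Mono 1 had 435 and 362 CPM of Pmp22, more than VSMC and each endothelial population in both libraries. The class difference kept its sign in each library, at 2.30 and 2.02 for Cnp, 2.23 and 2.12 for Mbp and -1.32 and -1.94 for Pmp22. With every cell given equal weight the differences were 1.82 for Cnp and 1.35 for Mbp. The mouse Mbp gene also gives golli transcripts, which are known in immune cells, and with 1 count per gene these cannot be told apart from those of myelin basic protein.

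Pmp22 also set Mono 1 apart from the other immune populations. Mono 1 (435 and 362 CPM) lay 3.58 ± 0.35 above Mono 2 (40.8 and 24.2 CPM) on the log2 scale (adjusted p = 2.35e-09, 9.01% of genes higher). It lay 4.64 ± 0.43 above Macro (20.9 and 14.2 CPM, adjusted p = 3.02e-10, 14.1% higher). In neither comparison did the libraries overlap. Between Mono 2 and Macro, Pmp22 did not pass (1.06 ± 0.68, adjusted p = 0.358). Cnp did not pass between Mono 1 and Mono 2 (-0.26 ± 0.29, adjusted p = 0.638), and its sign differed between the libraries (-0.55 and 0.10). Against Macro, Cnp ran the other way. Mono 1 lay below Macro by a log2 difference of -1.45 ± 0.25 (adjusted p = 3.59e-05, 9.94% of genes lower), and Mono 2 below Macro by -1.19 ± 0.29 (adjusted p = 0.00413, 5.74% lower), but the difference between Mono 2 and Macro missed the threshold after thinning (adjusted p = 0.0641). Mbp did not pass in the 3 comparisons, and between Mono 1 and Macro its sign differed between the libraries (1.66 and -1.55).

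Most cells named Macro carried genes of lymphocytes, by lists chosen after the data were seen. B cell genes marked 48 of the 167 cells, T and NK cell genes 83, both 1 and neither 35. Cnp was found in 23 of the 48 cells with B cell genes (47.9%), in 28 of the 83 with T and NK cell genes (33.7%) and in 4 of the 35 with neither (11.4%). Mbp was found in 0 of the 48, which allows a share of up to 6.25%. In cells with T and NK cell genes it was found in 1 of 42 in library 1 and 7 of 41 in library 2, and in cells with neither in 0 of 18 and 5 of 17. The difference between libraries was not tested.

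Smooth muscle cells were low in Cnp, at 12.6 and 9.35 CPM, a log2 difference of -1.45 ± 0.17 from the other classes (adjusted p = 7.51e-09, where 20.6% of genes were lower). Pmp22 lay close to the threshold (-0.43 ± 0.19, adjusted p = 0.0548), and passed it with RLE size factors (-0.50, adjusted p = 0.0204). Mbp did not pass (-0.79 ± 0.40, adjusted p = 0.102, -2.06 and -0.19 within libraries 1 and 2). Without the VSMC cell with 39 UMIs of Mbp the difference was -2.17. That cell was chosen by its Mbp, so leaving it out lowers Mbp in VSMC by construction, and no p is given.

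In the endothelial class Cnp (-0.84 ± 0.22, adjusted p = 0.00322) and Pmp22 (-0.53 ± 0.17, adjusted p = 0.0150) were lower than in the other classes, as were 15.7% of genes. For Pmp22 the size rested on library 1, at -1.05 there and -0.32 in library 2. Mbp did not pass (-1.14 ± 0.58, adjusted p = 0.141), but did with no filter on low counts (-1.19, adjusted p = 0.0271). Between pairs of endothelial populations none of the trio passed in edgeR or DESeq2, and 2 of 9 tests in edgeR, both of Pmp22 against EC 3, had an unadjusted p under 0.05. The share of all genes called was 20.3% for EC 1 against EC 2, 11.6% for EC 1 against EC 3, and 11.7% when EC 2 was set against EC 3. EC 2 lay below EC 3 in Pmp22 by -0.87 ± 0.34 (adjusted p = 0.111), and this passed with called doublets left out (-1.08, adjusted p = 0.0437).

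Likeness of pattern was measured as the Pearson correlation of log2(CPM + 10) over the 20 sums of library and population, as a description. Mbp and Cnp had an r of 0.92 with each other, but Pmp22 had 0.42 with Mbp and 0.31 with Cnp. The Neuron sums lie far above all others in Mbp and Cnp, so they weigh heavily in any r with these genes. An r without the Neuron sums was not computed, so these values do not show a shared course over the other populations. Most like Mbp were Acsbg1 (r = 0.95), an acyl-CoA synthetase gene, Egfl8 (0.94), the glial receptor gene Gpr37l1 (0.94), Mag (0.94) and Syngr1 (0.94). Most like Cnp were Syngr1 (0.93), Galnt6 (0.92), Mbp (0.92), Acsbg1 (0.88) and Gas2l3 (0.87). Most like Pmp22 were Serf1 (0.89), Il1rap (0.86), the choline transporter gene Slc44a1 (0.85), the collagen gene Col16a1 (0.85) and Cntfr (0.84), and none of these 5 is among the 5 nearest to Mbp or Cnp. Several of these genes had few counts, such as 18 UMIs of Syngr1 in all cells.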

How the data were processed

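Dissociated aortas were sequenced as 2 droplet libraries. The deposited values are raw UMI counts per gene and cell, which the authors made in Cell Ranger 2.1, per the submitters' processing notes; aligner settings, genome build and annotation are not given in the sources used here. Population names were taken from the deposited cell annotation. Libraries were told apart by barcode suffix. The labels describe separate mice. Earlier results of these data were known when the genes, lists and comparisons were chosen, and the lists of B and of T and NK cell genes (cells with at least 2 UMIs), the ranges of Neuron cells and the rich VSMC cell were chosen after their values were seen.

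UMIs were summed per population and library with at least 10 cells (20 sums). Genes were kept by filterByExpr (10488 tested) and scaled by TMM. A single quasi-likelihood model of edgeR 4.0.16 held a term for population and a term for library, which left 9 residual degrees of freedom (R 4.3.3). It used Benjamini-Hochberg adjustment over all genes tested and a threshold of 0.05. Both libraries hold every population, so library is the replicate block of the fit. Library folds used a prior count of 2. The SE of a log2 difference in edgeR was derived from the difference and its test statistic. The fit was tested on simulated data, in which all genes had the same spread and libraries had no effect. Changed genes were drawn only from those above a minimum of expected UMIs in the first group of the comparison. The shares recovered therefore do not hold for genes with few UMIs, such as many list genes in Neuron. Of 2-fold changes, it recovered 95% for Neuron, 88% for the immune class and 51% for Mono 1 against Mono 2. Of 4-fold changes it recovered 100%, 100% and 91%. Among 10288 unchanged genes it called 8, 10 and 2. Named genes were the trio, the 5 genes most like each, and up to 4 called genes of each list with the largest difference, at least 20 UMIs in Neuron and the same direction in each library, plus list genes at or near 0; other genes named cell by cell were chosen after their values were seen.

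The alternatives tried were DESeq2 1.42.0, RLE size factors, no filter, no library term, each library alone, called doublets left out (Scrublet in scanpy 1.11.5, 46 and 41 cells of libraries 1 and 2), thinning to 1300 UMIs per cell, and equal weight of cells (5 CPM added). Promoter windows came from RefSeq by gene symbol (2 of 2 genes looked up matched). Sequence of Mbp and some genes of the myelin list are not reported here.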

Additional observations from a re-analysis of the deposited data

How the results depend on the processing

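Of 536 alternative values, 433 were counted as unchanged, 98 as moved, 1 as losing a call and 4 as gaining one. Called and Neuron differences had to keep direction and call, or stay within the spread of replicates. Uncalled differences with no call under the alternative counted as unchanged whatever their sign. Counts of genes had to stay in the same range. Of 60 shares of cells, 52 left their interval with thinning or at least 2 UMIs. All 60 mean levels counted as unchanged, which was fixed in advance, since each single library also set the mean and its spread. In all, 0 called values changed direction. Of the 339 alternative values that are log2 differences, 12 had the other sign, 8 of them in a single library, and none of the 12 was called. Examples are Mbp between Mono 1 and Macro (lower in the fit, but 1.66 in library 1), Mbp between Mono 2 and Macro (0.23, but -0.62 in library 2) and Pmp22 between EC 1 and EC 3 (-0.65, but 0.30 in library 1). The cause of the shifts below was not tested unless the alternative itself leaves out cells or genes. Mbp in Neuron (log2 difference 7.82) became 7.99 with RLE size factors, 8.04 with DESeq2, 7.77 without the filter, 7.73 with no replicate block, 7.85 with doublets left out, 7.51 after thinning, 7.61 with equal weight of cells, 6.03 without Mbp-rich cells, 7.95 without the rich VSMC cell and 7.50 to 7.54 in single libraries. Cnp in Neuron (5.20) became 5.39 with RLE size factors and with DESeq2, 5.83 after thinning, 5.89 with equal weight, 4.74 without Mbp-rich cells and 4.97 to 5.17 in single libraries. Pmp22 in Neuron (3.67) became 1.84 without Mbp-rich cells and 3.05 to 4.00 in single libraries. In the endothelial class, Mbp became -1.19 (called) without the filter, Cnp -0.51 with equal weight, and Pmp22 -1.05 to -0.32 in single libraries. In smooth muscle, Mbp became -2.17 without the rich VSMC cell, which was left out by its Mbp. That value is counted above as gaining a call, but the fall is by construction. Pmp22 in smooth muscle became -0.50 (called) with RLE size factors, and Cnp -1.19 with equal weight and -1.33 to -1.16 in single libraries. In the immune class, equal weight gave 1.35 for Mbp and 1.82 for Cnp, and single libraries 2.12 to 2.23 and 2.02 to 2.30. Thinning called 636 genes in Neuron (955 otherwise), 1755, 2778, 2478 and 2727 in the endothelial, smooth muscle, fibroblast and immune classes, 1270, 692 and 660 between EC 1 and EC 2, EC 1 and EC 3, and EC 2 and EC 3, 743 between Fibro 1 and Fibro 2, and 635, 1409 and 660 between Mono 1 and Mono 2, Mono 1 and Macro, and Mono 2 and Macro, among fewer genes tested. Between Fibro 1 and Fibro 2 (1626) DESeq2 called 1078 and the fit with no replicate block 939. The share of higher calls in Neuron (569 higher, 386 lower) was larger with RLE size factors (630, 265) and DESeq2 (808, 243), and in smooth muscle (3008, 2163) smaller with DESeq2 (2281, 2756). Thinning lowered the share of Neuron cells with Pmp22 to 56.8% and with all 3 genes to 40.9%. Depth limits levels outside Neuron for Mbp, where single populations had as few as 3 UMIs.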
